A study of Mus musculus with 16 samples.

Results

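The genes described here were 10 transcripts of secreted inflammatory cytokines and of the genes that restrain NF-κB, taken as a fixed list of symbols: Csf1, Csf2, Csf3, Il34, Il6, Lif, Tnf, Tnfaip3, Nfkbia and Nfkbiz. All 10 were found among the 49315 gene identifiers of the count table, and all 10 were among the 15993 genes that passed the filter on low counts. They were measured by RNA sequencing in murine tracheal epithelial cell cultures (MTECs), which are primary airway cells that are expanded under medium and then differentiated with their upper surface exposed to air. MTECs came from female (F) and male (M) mice that were wild type (WT) or carried a disrupted Lman1 gene (KO), and were left naive or received 20 µg/ml house dust mite (HDM) extract overnight. Lman1 encodes a cargo receptor of the secretory pathway. The 8 groups of sex, genotype and treatment had 2 biological replicates each, which gave 16 libraries of 21860698 to 43442188 counts.

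Tracheas of several mice were pooled for the cultures, and the inserts they grew on were coated with a matrix laid down by 3T3 cells, a mouse fibroblast line. Mice were bred from heterozygotes on a C57BL/6J background. Animal ages were not used here. A replicate is therefore a culture of pooled tracheas, and p-values measure the spread between such cultures. As a check of the labels, Lman1 stood at 101 to 144 CPM (counts relative to library size, scaled with edgeR's TMM factors) in the 8 WT libraries. Both F KO naive libraries had 12.8 CPM, and the M KO naive libraries had 14.2 and 63.4 CPM. The F KO HDM libraries had 66.6 and 78.1 CPM and the M KO HDM libraries 65.0 and 66.0 CPM. In all, 5 of the 8 libraries labelled KO held 52.6% to 64.8% of the WT mean, so KO below means the libraries labelled KO. The F KO HDM response compares libraries that also differ in Lman1. So does the M KO HDM response, through M KO naive replicate 1, and the comparison of sexes in naive KO MTECs, through M KO naive replicate 2. Interactions that include these groups share this limit.

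Markers of epithelium were high in every library, with 2900 to 7469 summed CPM over Epcam, Cdh1, Krt8 and Krt18, although the club cell secretoglobin Scgb1a1 reached only 0.0474 to 3.75 CPM. Cyp2f2, which also marks club cells, had 3754 to 18920 CPM. The 7 macrophage and dendritic cell markers summed to 118 to 318 CPM, with Csf1r at 10.5 to 31.4 CPM and Itgax at no more than 0.404 CPM. The T cell markers Cd3e, Cd3g and Cd8a and the granulocyte markers S100a8, S100a9 and Cpa3 stayed at or below 3 counts in all 16 libraries. Of the other markers in these lists, Cd4 was above 3 counts in 10 libraries (at most 0.434 CPM), Ly6g in 9 (at most 0.282 CPM) and Kit in 16 (0.541 to 2.72 CPM). The 8 fibroblast markers ran from 2.99 to 598 summed CPM. Their replicates lay far apart in the male and F WT groups and were close in F KO naive (110 and 95.4 CPM) and F KO HDM (69.9 and 66.3 CPM).

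NF-κB is a family of transcription factors held in the cytoplasm by IκB proteins. Allergens, microbial products and cytokines such as TNF activate a kinase that marks IκB for destruction, and the freed factors then switch on cytokine genes together with their own inhibitors. Nfkbia encodes IκBα, an inhibitor that is rapidly resynthesised. Tnfaip3 encodes a ubiquitin-editing enzyme that shuts down signalling above the kinase, and Nfkbiz encodes a nuclear IκB protein that helps a subset of secondary targets. In the airway, epithelial CSF-1 and IL-34 act on macrophages through a shared receptor, GM-CSF (Csf2) and G-CSF (Csf3) act on myeloid cells, and IL-6 and LIF signal through a shared subunit, Il6st.

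Upstream sequences are shown for the 4 genes with a promoter on file whose transcripts rose in F WT MTECs, Csf1, Lif, Tnfaip3 and Nfkbia, and for Il6, the least abundant member. They were read from RefSeq promoters of GRCm38.p6, which were on file for 7 of the 10 genes. Csf3, Il34 and Nfkbiz had no entry. Each is written 5′ to 3′ on the strand of the gene and ends at or just before the RefSeq start, with bases in any GENCODE exon of the gene left out. The regions are chr3:107760470-107760719 (minus strand) for Csf1, chr11:4257318-4257556 (plus strand) for Lif, chr10:19015411-19015547 (minus strand) for the first of the Tnfaip3 starts, chr12:55492648-55492897 (minus strand) for Nfkbia and chr5:30012864-30013113 (plus strand) for Il6. Capitals mark matches to the classical κB consensus, which has 10 bases, and to the AP-1 site TGANTCA, which has 7.
Csf1: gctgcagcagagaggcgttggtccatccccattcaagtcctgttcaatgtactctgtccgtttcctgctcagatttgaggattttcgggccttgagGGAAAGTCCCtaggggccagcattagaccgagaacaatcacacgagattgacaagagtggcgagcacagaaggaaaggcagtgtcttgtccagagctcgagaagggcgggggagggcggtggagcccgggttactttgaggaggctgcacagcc
Lif: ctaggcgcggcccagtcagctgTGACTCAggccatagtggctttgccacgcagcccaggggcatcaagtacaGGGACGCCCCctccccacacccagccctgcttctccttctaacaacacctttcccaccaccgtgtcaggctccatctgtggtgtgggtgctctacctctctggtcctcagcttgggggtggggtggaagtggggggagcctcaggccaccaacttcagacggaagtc
Tnfaip3: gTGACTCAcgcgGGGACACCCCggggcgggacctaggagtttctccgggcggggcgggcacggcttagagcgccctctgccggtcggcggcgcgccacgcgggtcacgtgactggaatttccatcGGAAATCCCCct
Nfkbia: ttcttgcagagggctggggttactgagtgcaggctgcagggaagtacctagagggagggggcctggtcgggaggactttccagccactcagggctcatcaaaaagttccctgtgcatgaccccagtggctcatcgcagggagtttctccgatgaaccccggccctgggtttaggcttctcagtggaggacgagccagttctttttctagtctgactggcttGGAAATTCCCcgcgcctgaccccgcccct
Il6: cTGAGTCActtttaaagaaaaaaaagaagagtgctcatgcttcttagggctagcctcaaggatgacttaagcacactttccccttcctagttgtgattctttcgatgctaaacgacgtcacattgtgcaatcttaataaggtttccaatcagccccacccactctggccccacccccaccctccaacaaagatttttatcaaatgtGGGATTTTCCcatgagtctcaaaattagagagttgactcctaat

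On either strand, the κB consensus was matched in the promoters of 5 of the 7 genes. Tnfaip3 had 2 matches, GGGACACCCC starting 125 bases and GGAAATCCCC starting 12 bases before the start. Nfkbia had GGAAATTCCC at 29 bases, Il6 had GGGATTTTCC at 44 bases, Csf1 had GGAAAGTCCC at 154 bases and Lif had GGGACGCCCC at 178 bases before the start. Tnf, Csf2 and the other Tnfaip3 start held no match in their windows. The Csf2 window, with upstream bases at chr11:54249900-54250149 (minus strand), lies upstream of the GENCODE end of the gene at 54249667. Bases next to that end were not searched. The AP-1 site was matched in Il6, Tnfaip3 and Lif, and no match of one motif overlapped a match of the other. Among all 32851 promoters of the same 300 bases, 8.46% held the κB consensus and 7.81% the AP-1 site. These shares are per promoter, whereas the 5 of 7 is per gene and counts a match at any start of Tnfaip3. These are matches of letters, and binding was not measured here.

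**Figure D1:**
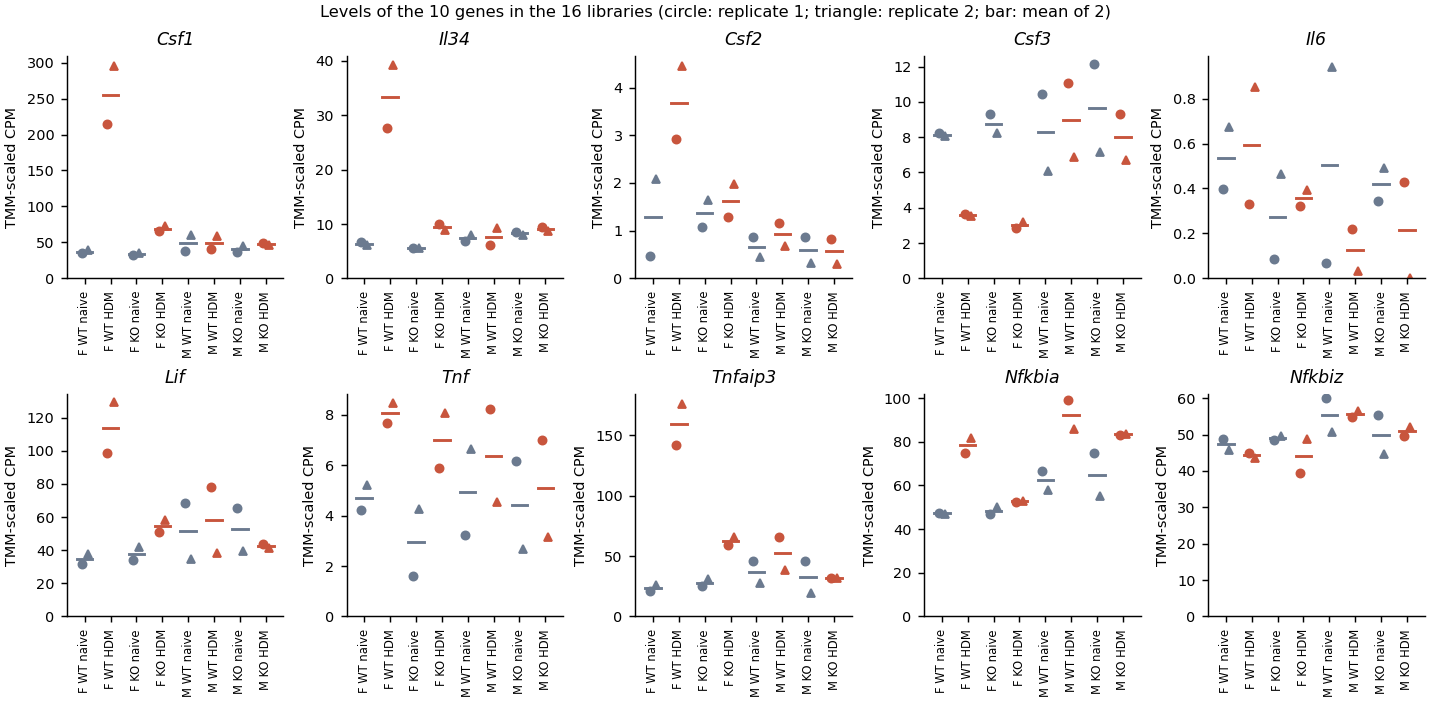
Level of each of the 10 genes (TMM-scaled CPM, linear axes from 0) in the 8 groups of sex, genotype and treatment, with circles for replicate 1, triangles for replicate 2 and bars for the mean of 2. Csf1, Il34, Lif and Tnfaip3 stand highest in both F WT HDM libraries, Csf3 is lowest in the 4 female HDM libraries, and Il6 stays below 1 CPM throughout.

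Levels in unstimulated cultures differed widely between the genes. On a scale of CPM per kilobase of exon, medians over the 8 naive libraries were 32.6 for Nfkbia, 9.82 for Nfkbiz, 8.86 for Lif, 7.00 for Csf1 and 5.82 for Csf3. They were 3.72 for Tnfaip3, 3.48 for Il34, 2.59 for Tnf, 1.08 for Csf2 and 0.178 for Il6. Il6 was therefore the lowest of the 10 per length and Nfkbia the highest. Il6 had 0 to 30 counts per library and lay at or under the floor of 3 counts in 4 of the 16 libraries. These were 1 library each of M WT naive (2 counts), M WT HDM (1 count), M KO HDM (0 counts) and F KO naive (3 counts). In M KO HDM replicate 2, a count of 0 allows a level of up to 0.103 CPM. Csf2 was low but above the floor in all 16 libraries, with 9 to 94 counts, and the other 8 genes had at least 57 counts in every library.

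**Figure D2:**
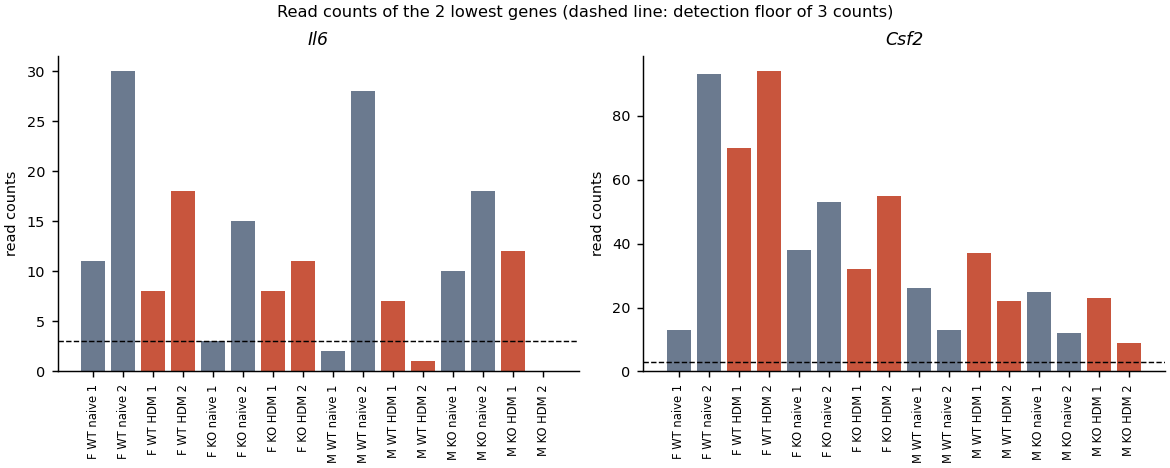
Read counts (linear axes from 0) of Il6 and Csf2 in each library, with HDM libraries in red and naive libraries in grey and a dashed line at the floor of 3 counts. Il6 falls to the line or under it in 4 libraries, and Csf2 does in none.

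HDM was compared with naive MTECs within each sex and genotype. In F WT MTECs, Csf1, Il34, Lif, Tnfaip3 and Nfkbia rose and Csf3 fell, so that 6 of the 10 genes were called by edgeR's quasi-likelihood test at an adjusted p under 0.05. This response was broad, and 43.1% of all tested genes were called, 20.6% upward and 22.4% downward. The median log2 fold change was 1.12 over the 10 genes and -0.02 over all tested genes. HDM and naive libraries did not overlap for 9 of the 10 genes, against 74.6% of all tested genes. The samples are bulk cultures, in which fewer cells of a type and less RNA per cell cannot be told apart.

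Csf1 and Il34 encode both known ligands of the CSF-1 receptor. Csf1 (chromosome 3, 107741048 to 107760469) had 34.6 and 38.8 CPM in F WT naive libraries and 214 and 296 CPM in F WT HDM libraries. The HDM libraries lay far above every other library of the study, of which the highest had 72.3 CPM. The fold was 6.94 (log2 fold change 2.79, SE 0.238, edgeR adjusted p = 5.84e-06). Il34 (chromosome 8, 110741829 to 110805924) had 6.72 and 6.07 CPM in F WT naive libraries and 27.6 and 39.2 CPM in F WT HDM libraries. Again the groups did not overlap, and no other group exceeded 9.93 CPM. The log2 fold change of Il34 was 2.39 (SE 0.206, edgeR adjusted p = 6.38e-06). An antisense transcript on the opposite strand of Il34, Gm15895, had 6 to 47 counts per library, and its reads cannot be told apart from those of Il34 without a known strand setting.

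Csf2 and Csf3 went different ways. Csf2 (chromosome 11, 54247271 to 54249667), the gene of GM-CSF, had 0.472 and 2.09 CPM in F WT naive libraries and 2.91 and 4.45 CPM in F WT HDM libraries. These groups did not overlap, but the naive replicates differed several-fold, and the log2 fold change of 1.47 (SE 0.639) was not called (edgeR adjusted p = 0.0828). Without F WT naive replicate 2 it was 2.95 and called (edgeR adjusted p = 0.0145). Up to 29 counts in a library fell on Gm12223, which is antisense to Csf2, so counts of Csf2 are uncertain by a share that was not tested. Csf3 (chromosome 11, 98701263 to 98703629), the gene of G-CSF, had 8.25 and 8.05 CPM in F WT naive libraries and 3.62 and 3.50 CPM in F WT HDM libraries. It was the only called gene of the 10 that fell, with a log2 fold change of -1.19 (SE 0.323, edgeR adjusted p = 0.0112). Without F WT HDM replicate 2 the change was -1.16 and no longer called (edgeR adjusted p = 0.0622).

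Of the IL-6 family, Lif moved and Il6 did not pass the test. Lif (chromosome 11, 4257557 to 4272514), a cytokine that signals through LIFR and Il6st, had 31.5 and 37.5 CPM in F WT naive libraries and 98.5 and 129 CPM in F WT HDM libraries. The groups did not overlap, and the log2 fold change was 1.72 (SE 0.363, edgeR adjusted p = 0.00271). Il6 (chromosome 5, 30013114 to 30019981) had 0.400 and 0.674 CPM in F WT naive libraries and 0.333 and 0.852 CPM in F WT HDM libraries. These overlapped, and its log2 fold change of 0.09 had an SE of 1.09 and it was not called (edgeR adjusted p = 0.954). Tnf (chromosome 17, 35199381 to 35202007), a cytokine that activates NF-κB, had 4.21 and 5.21 CPM in F WT naive libraries and 7.66 and 8.48 CPM in F WT HDM libraries. The groups did not overlap but the log2 fold change of 0.77 (SE 0.541) was not called (edgeR adjusted p = 0.275). It was called when only the 4 libraries compared were fitted (edgeR adjusted p = 0.0306).

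The 3 feedback genes differed from each other. Tnfaip3 (chromosome 10, 19000910 to 19015657) had 20.9 and 25.8 CPM in F WT naive libraries and 142 and 176 CPM in F WT HDM libraries. Both HDM libraries stood above every other library, of which the highest had 66.1 CPM, and the log2 fold change was 2.77 (SE 0.372, edgeR adjusted p = 0.000143). Nfkbia (chromosome 12, 55489410 to 55492647) had 47.5 and 47.1 CPM in F WT naive libraries and 75.0 and 81.7 CPM in F WT HDM libraries. Its groups did not overlap, and its log2 fold change was smaller, 0.73 (SE 0.125, edgeR adjusted p = 0.000738). Nfkbiz (chromosome 16, 55811375 to 55838899) had 48.9 and 45.7 CPM in F WT naive libraries and 44.9 and 43.7 CPM in F WT HDM libraries. The HDM values lay slightly below the naive values, and the log2 fold change of -0.09 (SE 0.12) was not called (edgeR adjusted p = 0.562).

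**Figure D3:**
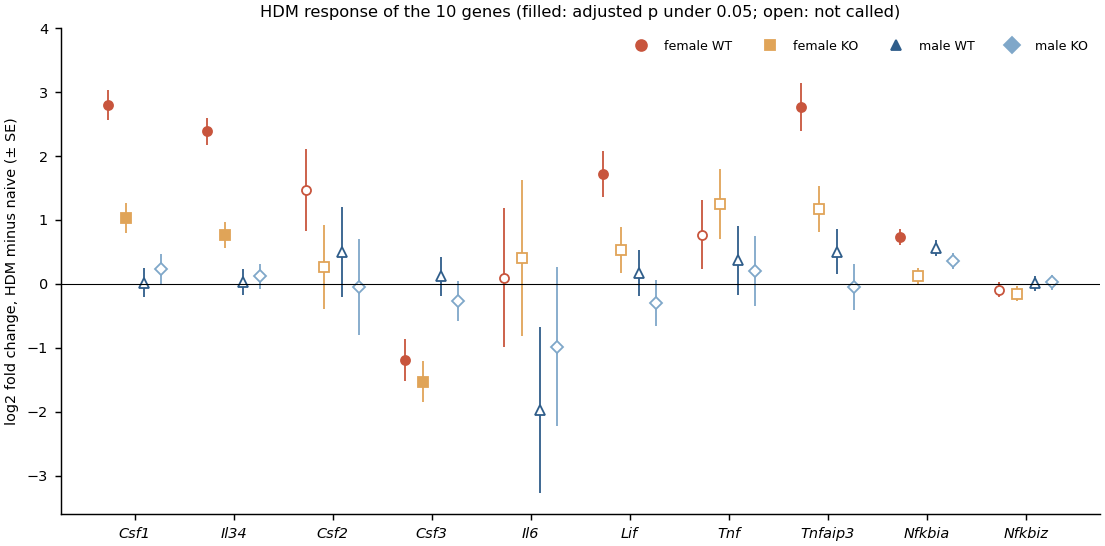
Log2 fold change of HDM against naive MTECs for the 10 genes, with SE bars, in F WT, F KO, M WT and M KO cultures, where filled symbols passed an adjusted p under 0.05 in edgeR's quasi-likelihood test. Filled symbols occur in F WT (6 genes) and F KO (3 genes) and in no male group.

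In F KO MTECs, Csf1 and Il34 rose and Csf3 fell, and the other 7 genes did not pass the test. These 3 calls compare with 10.4% of all tested genes, of which 4.63% were called upward and 5.77% downward. Csf1 had 32.7 and 35.2 CPM in F KO naive libraries and 66.3 and 72.3 CPM in F KO HDM libraries, a log2 fold change of 1.03 (SE 0.229, edgeR adjusted p = 0.016). Il34 had 5.50 and 5.58 CPM without HDM and 9.93 and 8.88 CPM with HDM, a log2 fold change of 0.76 (SE 0.204, edgeR adjusted p = 0.035). Csf3 had 9.29 and 8.21 CPM without HDM and 2.86 and 3.19 CPM with HDM, a log2 fold change of -1.53 (SE 0.324, edgeR adjusted p = 0.0126). In each of the 3 the groups did not overlap, which was so for 7 of the 10 genes and for 60.4% of all tested genes. Tnfaip3 had 24.9 and 30.8 CPM in F KO naive libraries and 59.3 and 66.1 CPM in F KO HDM libraries, and its log2 fold change of 1.17 (SE 0.358) narrowly missed the threshold (edgeR adjusted p = 0.0603). DESeq2 called it (adjusted p = 0.0064). The remaining log2 fold changes were 1.25 for Tnf, 0.53 for Lif, 0.40 for Il6, 0.26 for Csf2, 0.13 for Nfkbia and -0.15 for Nfkbiz. None of these 3 calls remained without F KO naive replicate 1, F KO HDM replicate 1 or F KO HDM replicate 2, and Csf3 alone remained without F KO naive replicate 2.

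In male MTECs edgeR called none of the 10 genes and none of the 15993 tested genes in response to HDM (0.0% in M WT, in M KO and in both averaged over genotype). At an unadjusted p under 0.05 there was 1 of the 10 genes in each of these comparisons, Nfkbia in all of them, against 4.16% of all tested genes in M WT, 5.36% in M KO and 2.23% in the average. DESeq2 called 0.0125% of the genes it tested in M WT, 0.00625% in M KO and 0.1% in the average. The last group included Nfkbia. Nfkbia had 66.7 and 58.1 CPM in M WT naive libraries and 99.2 and 85.7 CPM in M WT HDM libraries. It had 74.7 and 55.0 CPM in M KO naive libraries and 83.1 and 83.6 CPM in M KO HDM libraries. Every male HDM library thus stood above every male naive library, a pattern shared by 0.488% of all tested genes. The averaged log2 fold change was 0.46 (SE 0.0875, edgeR adjusted p = 0.299, DESeq2 adjusted p = 0.00245). Nfkbia was also the only gene of the 10 whose HDM libraries lay above the naive libraries in all 4 groups of sex and genotype, as 0.281% of all tested genes did. This pattern was chosen after the values were seen.

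For the other 9 genes the male changes were small or imprecise. In M WT the log2 fold changes ran from -1.97 for Il6 (SE 1.3) to 0.51 for Tnfaip3 (SE 0.353), with Csf1 at 0.02 (SE 0.227) and Il34 at 0.03 (SE 0.202). In M KO they ran from -0.98 for Il6 (SE 1.24) to 0.23 for Csf1 (SE 0.228), with Tnfaip3 at -0.05 (SE 0.358). HDM and naive libraries did not overlap for 1 of the 10 genes in M WT, against 29.6% of all tested genes, and for 3 in M KO, against 38.5%. These were Nfkbia in M WT, and Nfkbia, Csf1 and Il34 in M KO.

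Replicates of 3 of the 4 male groups lay far apart for several of these genes. Lif had 68.2 CPM in M WT naive replicate 1, 77.9 in M WT HDM replicate 1 and 65.7 in M KO naive replicate 1, against 34.7, 38.1 and 39.7 CPM in replicate 2 of the same groups. Tnfaip3 had 45.5, 65.8 and 46.2 CPM in these replicates 1 and 28.1, 38.8 and 19.6 CPM in the replicates 2. Csf3 had 10.5, 11.1 and 12.1 CPM against 6.09, 6.89 and 7.18 CPM. Csf1 was lower in the replicates 1, with 37.6, 40.5 and 36.4 CPM against 60.6, 59.1 and 44.3 CPM. These 3 libraries were also the lowest in fibroblast markers, with 4.11, 2.99 and 5.03 summed CPM against 158, 39.9 and 97.0 in the replicates 2. The replicates of the fourth group, M KO HDM, were close in Lif (43.8 and 41.4 CPM), Tnfaip3 (31.9 and 31.5 CPM) and Csf1 (49.0 and 46.0 CPM), although their fibroblast markers summed to 69.3 and 10.9 CPM. Whether the fibroblast content plays a part in these values was not tested. The libraries were set side by side after their values were seen.

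**Figure D4:**
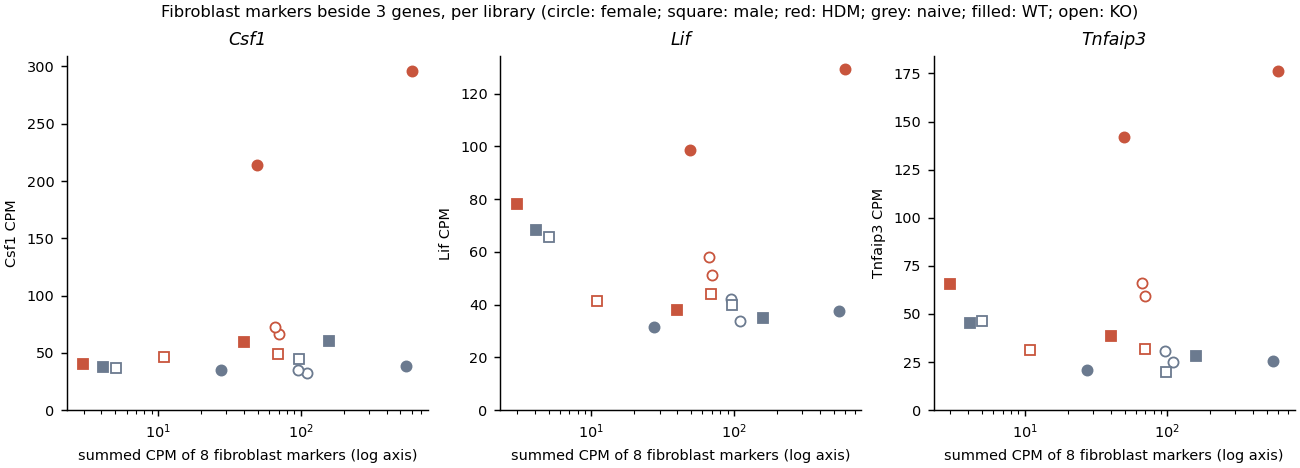
Csf1, Lif and Tnfaip3 (CPM, linear axes) against the summed CPM of 8 fibroblast markers (log axis) in the 16 libraries, with circles for female, squares for male, red for HDM, grey for naive, filled symbols for WT and open symbols for KO. The 2 filled red circles of F WT HDM stand highest for all 3 genes at 49.4 and at 598 summed CPM of fibroblast markers.

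In F WT MTECs the fibroblast markers summed to 27.4 and 547 CPM in naive replicates 1 and 2 and to 49.4 and 598 CPM in HDM replicates 1 and 2. Within each treatment the replicate richer in these markers was the higher in Csf1 (34.6 and 38.8 CPM naive, 214 and 296 CPM with HDM), in Lif (31.5 and 37.5, 98.5 and 129) and in Tnfaip3 (20.9 and 25.8, 142 and 176). The naive library with 547 summed CPM of fibroblast markers stood below the HDM library with 49.4 for all 3 genes. The sums hide members that moved apart between the F WT naive and HDM means. Col1a1 (129 to 25.1 CPM) and Thy1 (4.48 to 1.62) were lower with HDM. Col1a2 (78.7 to 87.0), Col3a1 (63.2 to 154), Pdgfrb (7.08 to 9.61), Pdgfra (1.61 to 7.71), Dcn (2.28 to 24.1) and Lum (0.57 to 14.5) were higher. The part of the fibroblast markers in the HDM response was not tested. Macrophage and dendritic cell markers were lowest in the F WT HDM group, at 118 and 129 summed CPM, against 251 and 307 in F WT naive libraries. The other epithelial lists were also compared between HDM and naive libraries. Ciliated markers differed little in sum, with 596 and 603 CPM against 640 and 714 CPM in F WT MTECs. In F KO MTECs they summed to 591 and 693 CPM against 658 and 739 CPM. Most of this sum was Tubb4b. In F WT MTECs the means of Dnah5 (6.60 to 3.33 CPM) and Ccdc39 (3.46 to 1.19) were lower with HDM, and Foxj1 (79.4 to 82.9) was not. Basal cell markers summed to 1873 and 3796 CPM in F WT HDM libraries against 5834 and 7136 in F WT naive libraries. Club and secretory markers summed to 3759 and 4650 CPM against 12880 and 17010 CPM, and the pan-epithelial markers to 7256 and 7469 CPM against 3414 and 3859 CPM. In F KO MTECs basal markers summed to 8312 and 9787 CPM in HDM libraries against 6373 and 7374 in naive libraries, club and secretory markers to 7198 and 7859 CPM against 13050 and 15680 CPM, and pan-epithelial markers to 5213 and 5651 CPM against 3244 and 3719 CPM. The basal sum of F KO MTECs was higher with HDM through Krt5 (means 4533 to 5326 CPM) and Krt14 (2009 to 3422). The other basal markers, Trp63 (222.2 to 203.5) and Ngfr (109.0 to 98.2), were lower with HDM. The part that cell composition has in the changes of the 10 genes was not tested.

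Genotype was compared within each sex and treatment to ask whether the loss of Lman1 changes these transcripts. Among naive MTECs none of the 10 genes was called in either sex. No tested gene was called by edgeR in female naive MTECs (0.0%) or in male naive MTECs (0.0%), while 1.27% and 5.42% of tested genes had an unadjusted p under 0.05 and none of the 10 genes did. DESeq2 called 0.00625% of genes in each, and none of the 10. Lman1 itself was not called by edgeR in either sex, so even a 9.61-fold difference went uncalled here. Its log2 fold change was -3.26 in F (SE 0.484, edgeR adjusted p = 0.403, DESeq2 adjusted p = 9.22e-06). In M it was -1.65 (SE 0.446, edgeR adjusted p = 0.879, DESeq2 adjusted p = 0.912). In HDM-treated female MTECs, Csf1, Il34, Lif, Tnfaip3 and Nfkbia were lower in KO than in WT, 5 of the 10 genes. Of all tested genes 29.2% were called in this comparison, 14.3% as lower. The log2 fold change of KO against WT was -1.88 for Csf1 (SE 0.229, edgeR adjusted p = 0.000253) and -1.83 for Il34 (SE 0.202, edgeR adjusted p = 0.000143). It was -1.34 for Tnfaip3 (SE 0.352, edgeR adjusted p = 0.0152), -1.06 for Lif (SE 0.357, edgeR adjusted p = 0.0443) and -0.57 for Nfkbia (SE 0.125, edgeR adjusted p = 0.00648). For each of these 5 genes the F KO HDM libraries lay below the F WT HDM libraries without overlap. The 2 groups did not overlap for 7 of the 10 genes. The share over all tested genes was not determined, so these counts do not show whether the 10 genes differed from other genes. Csf3 was close in both, with 3.56 ± 0.082 CPM in WT and 3.03 ± 0.227 CPM in KO (SD, n = 2). Lman1 itself stood at 117 and 101 CPM in these WT libraries and 66.6 and 78.1 CPM in these KO libraries. Lif and Tnfaip3 were no longer called without F WT HDM replicate 2, F KO HDM replicate 1 or F KO HDM replicate 2, and Nfkbia was not without F WT HDM replicate 2 (edgeR adjusted p = 0.0535). In HDM-treated male MTECs none of the 10 genes was called by edgeR (0.0% of all genes), by an unadjusted p under 0.05 (18.1% of all genes) or by DESeq2 (4.58% of the genes it tested).

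The difference between the HDM responses of KO and WT was tested as an interaction. In female MTECs the response was smaller in KO for 3 of the 10 genes, against 11.2% of all tested genes called and 5.08% called in that direction. The interaction was -1.76 on the log2 scale for Csf1 (SE 0.321, edgeR adjusted p = 0.0074), -1.62 for Il34 (SE 0.285, edgeR adjusted p = 0.00617) and -0.60 for Nfkbia (SE 0.177, edgeR adjusted p = 0.0492). Nfkbia sat at the threshold and was called in 1 of the 8 fits that left out a library, the fit without F WT HDM replicate 1. With library size only it was not called (edgeR adjusted p = 0.051). For Tnfaip3 the interaction was -1.60 (SE 0.502, edgeR adjusted p = 0.0631), which DESeq2 called (adjusted p = 0.00819), and for Lif it was -1.20 (SE 0.505, edgeR adjusted p = 0.145). For Csf3 it was -0.34 (SE 0.453, edgeR adjusted p = 0.665). In male MTECs no gene was called by edgeR or by DESeq2 (0.0% by each), and none of the 10 genes had an unadjusted p under 0.05, against 8.68% of all genes.

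Sex was compared within each genotype and treatment, since the study asks whether the response to HDM depends on sex. Among naive WT MTECs edgeR called 0.1% of all genes and among naive KO MTECs 0.188%, and none of the 10 genes was among them. Nfkbia in WT, and Nfkbia and Il34 in KO, had an unadjusted p under 0.05, against 12.3% and 9.91% of all genes. DESeq2 called 1.66% and 1.38% of the genes it tested and none of the 10. Nfkbia was 0.40 higher in M than in F on the log2 scale in naive WT (SE 0.125, edgeR adjusted p = 0.261) and 0.42 higher in naive KO (SE 0.124, edgeR adjusted p = 0.258), and neither difference was called. All 4 male naive libraries stood above all 4 female naive libraries for Nfkbia. This pattern was also picked after the values were seen, and its share over all genes was not determined.

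After HDM, M and F MTECs of the WT genotype differed in 7 of the 10 genes, against 41.6% of all tested genes. Csf1, Il34, Tnfaip3, Csf2 and Lif were lower in M than in F (20.3% of all genes were called lower), and Csf3 and Nfkbiz were higher (21.3%). The log2 fold change of M against F was -2.36 for Csf1 (SE 0.233, edgeR adjusted p = 1.67e-05), -2.13 for Il34 (SE 0.204, edgeR adjusted p = 1.33e-05) and -1.61 for Tnfaip3 (SE 0.355, edgeR adjusted p = 0.00373). It was -1.99 for Csf2 (SE 0.664, edgeR adjusted p = 0.0312), -0.97 for Lif (SE 0.355, edgeR adjusted p = 0.0454), 1.33 for Csf3 (SE 0.323, edgeR adjusted p = 0.00637) and 0.33 for Nfkbiz (SE 0.12, edgeR adjusted p = 0.044). Csf1, Il34 and Tnfaip3 kept their calls whichever of the 4 libraries was left out. Csf2 lost its call without F WT HDM replicate 2 or either M WT HDM library, Lif without F WT HDM replicate 2 or M WT HDM replicate 2, Csf3 without M WT HDM replicate 1, and Nfkbiz without any of the 4. Lif also lost its call when only the 4 libraries compared were fitted (edgeR adjusted p = 0.0988) or only the 8 libraries labelled WT (edgeR adjusted p = 0.0978), and Csf2 in the latter fit (edgeR adjusted p = 0.0578). Nfkbiz lost its call with the replicate block (edgeR adjusted p = 0.0512) and with upper-quartile scaling (edgeR adjusted p = 0.0581). In KO MTECs after HDM, Csf3 and Nfkbia were higher in M, 2 of the 10 genes, against 25.3% of all genes called and 12.9% called higher. The values were 1.40 for Csf3 (SE 0.325, edgeR adjusted p = 0.00897) and 0.66 for Nfkbia (SE 0.125, edgeR adjusted p = 0.00299), and Csf3 was not called without F KO HDM replicate 1 or M KO HDM replicate 1. When only the 4 libraries compared were fitted, Csf1, Csf2, Lif and Tnfaip3 were also called, as lower in M.

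The interaction of sex with HDM was called for 4 of the 10 genes in WT MTECs, all with a smaller response in M, against 24.2% of all tested genes and 11.3% in that direction. It was -2.78 on the log2 scale for Csf1 (SE 0.324, edgeR adjusted p = 0.000162), -2.35 for Il34 (SE 0.286, edgeR adjusted p = 0.000208), -2.26 for Tnfaip3 (SE 0.504, edgeR adjusted p = 0.00771) and -1.55 for Lif (SE 0.504, edgeR adjusted p = 0.044). Csf3 had 1.31 (SE 0.444, edgeR adjusted p = 0.0514), which DESeq2 called (adjusted p = 0.0284), and which edgeR called without M WT naive replicate 1 or M WT HDM replicate 2. The call of Lif was lost without F WT naive replicate 1, F WT naive replicate 2, F WT HDM replicate 2, M WT naive replicate 1 or M WT HDM replicate 2. With only the 8 libraries labelled WT in the fit, Csf1, Il34 and Tnfaip3 were called and Lif was not (edgeR adjusted p = 0.105). In KO MTECs none of the 10 genes was called, against 3.56% of all genes. Csf1, Csf3, Il34 and Tnfaip3 had an unadjusted p under 0.05, as had 18.6% of all genes, and DESeq2 called none of the 10 and 8.82% of the genes it tested.

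Over the 8 groups, mean levels of Csf1 ran from 255 CPM in F WT HDM and 69.3 in F KO HDM to 33.9 in F KO naive, and each of the first 2 groups stood clear of the next one below. Tnfaip3 ran from 159 CPM in F WT HDM to 23.3 in F WT naive, and F KO HDM (62.7 CPM) overlapped M WT HDM (52.3 CPM). Lif ran from 114 CPM in F WT HDM to 34.5 in F WT naive, with every neighbour below the first overlapping the next. Nfkbia had another order, with M WT HDM highest (92.4 CPM), then M KO HDM (83.3), F WT HDM (78.3), M KO naive (64.9), M WT naive (62.4), F KO HDM (52.8), F KO naive (48.4) and F WT naive (47.3). The overlapping neighbours in it were M KO naive with M WT naive, and F KO naive with F WT naive. For Tnf and Il6 every group overlapped its neighbour. Tnf ran from 8.07 to 2.95 CPM and Il6 from 0.593 to 0.126 CPM. Nfkbiz varied least, from 55.7 to 44.1 CPM.

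The receptors of these cytokines, a list of 11 genes, were all tested, and in F WT MTECs 3 rose and 3 fell with HDM while 5 did not pass the test, against 43.1% of all tested genes called. Tnfrsf1b, the inducible TNF receptor, went from 40.9 to 92.1 CPM (means of 2, log2 fold change 1.17, SE 0.12, edgeR adjusted p = 2.08e-05). Ptprz1, a phosphatase that binds IL-34, went from 24.4 to 69.9 CPM (log2 fold change 1.51, edgeR adjusted p = 9.33e-05), and Csf2ra, the GM-CSF receptor α chain, from 8.39 to 16.8 CPM (1.01, edgeR adjusted p = 6.82e-05). Il6ra, the ligand-binding chain for IL-6, fell from 7.71 to 2.73 CPM (log2 fold change -1.50, edgeR adjusted p = 2.52e-05). Csf1r, the receptor shared by CSF-1 and IL-34, fell from 24.4 to 14.5 CPM (-0.74, edgeR adjusted p = 0.0187). Il6st fell from 320 to 235 CPM (-0.44, edgeR adjusted p = 0.0487). In F KO MTECs 2 of the 11 rose, Tnfrsf1b (0.69) and Ptprz1 (0.83), and 1 fell, Il6ra (-0.57), against 10.4% of all tested genes called. Csf2ra was 1.22 lower on the log2 scale in F KO than in F WT after HDM (edgeR adjusted p = 8.48e-05), and its interaction was -1.33 (edgeR adjusted p = 0.00119). The median of the list in F WT was -0.44, against -0.02 over all genes.

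Of 19 NF-κB subunits and members of the kinase cascade, 4 rose and 7 fell in F WT MTECs with HDM and 8 did not pass the test, with a median log2 fold change of -0.03, against 20.6% of all tested genes called higher and 22.4% called lower. Traf3, an adaptor that restrains the non-canonical arm, rose from 61.5 to 117 CPM (log2 fold change 0.92, edgeR adjusted p = 2.21e-05). The non-canonical subunits Relb and Nfkb2 rose by 0.86 and 0.56 on the log2 scale (edgeR adjusted p = 8.41e-05 and 0.000375), and Tab1, a partner of the kinase TAK1 (Map3k7), fell by 0.51 (edgeR adjusted p = 0.000238). In F KO MTECs the called genes were Traf3 (0.46), Relb (0.47) and Nfkb2 (0.35), which rose, and Tab1 (-0.41), which fell, against 10.4% of all tested genes called. Of 17 other inhibitors and feedback genes, 5 rose and 3 fell in F WT MTECs and 9 did not pass the test, with a median of 0.19 and the same shares over all genes (20.6% higher, 22.4% lower). Rnf11, a partner of the Tnfaip3 protein, went from 123 to 247 CPM (log2 fold change 1.00, edgeR adjusted p = 1.63e-05), and the deubiquitinase gene Cyld from 70.6 to 105 CPM (0.58, edgeR adjusted p = 0.000202). Nfkbie, another IκB gene, went from 12.1 to 34.2 CPM (edgeR adjusted p = 0.000495), and Tnip1, whose product binds that of Tnfaip3, from 80.4 to 121 CPM (0.59, edgeR adjusted p = 0.00115). In F KO MTECs the call in this list was Irak3, against 10.4% of all tested genes called. Irak3 fell by 1.75 on the log2 scale in F KO MTECs (edgeR adjusted p = 0.0199) and by 2.25 in F WT MTECs (edgeR adjusted p = 0.0013).

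Of 11 genes of JAK-STAT signalling below these cytokines, 2 rose and 6 fell in F WT MTECs and 3 did not pass the test, with a median of -0.27, against 20.6% of all tested genes called higher and 22.4% called lower. Cish, a feedback inhibitor of STAT5, rose from 6.57 to 26.7 CPM (log2 fold change 2.02, edgeR adjusted p = 9.35e-05). Stat3, the main transducer below IL-6 and LIF, fell from 333 to 167 CPM or by 1.00 on the log2 scale (edgeR adjusted p = 0.000257). Socs2 and Socs3, further feedback inhibitors, fell by 0.74 and 1.05 on the log2 scale (edgeR adjusted p = 0.000317 and 0.00114). In F KO MTECs Cish rose (0.96, edgeR adjusted p = 0.0333) and no other gene of the list passed, against 10.4% of all tested genes called. None of the 58 genes of the 4 lists was called in the HDM response of M WT or M KO MTECs by edgeR, nor was any tested gene (0.0% in each).

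**Figure D5:**
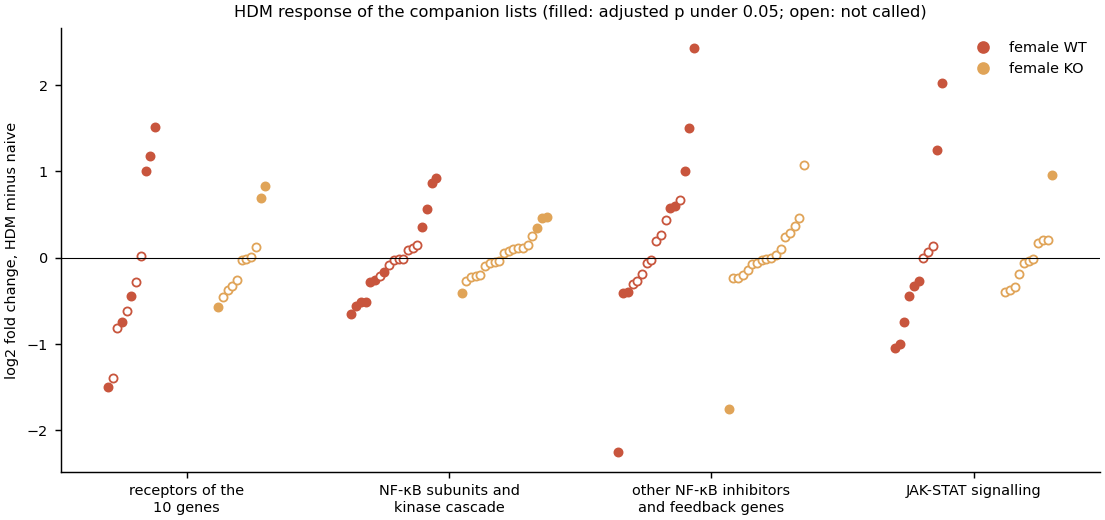
Log2 fold change of HDM against naive MTECs for each gene of the 4 companion lists (11, 19, 17 and 11 genes), in F WT and F KO cultures, with filled circles for an adjusted p under 0.05. F WT shows 33 filled circles over the 4 lists, in both directions, and F KO shows 9, against 43.1% and 10.4% of all tested genes called.

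Across the 16 libraries, log2 CPM of Csf1 and Il34 had a Pearson correlation of 0.967, and that of Lif and Tnfaip3 was 0.933. Csf3 ran the other way from Csf1 (-0.752). These points share groups, libraries and depth, and are given as a description. Nearest to Csf1 among all tested genes were Oxr1 (0.982), Plekha3 (0.977) and Leprot (0.977), and nearest to Il34 were Rheb (0.976), Plekha3 (0.975) and Rnf11 (0.974). Plekha3 was therefore shared by both. Tnfaip3 was nearest to Tnip3 (0.983), Anxa5 (0.971) and Cpne8 (0.969), and Lif to Hk2 (0.977), Fam149a (0.965) and Itgb6 (0.961). Csf3 was nearest to Nek5 (0.952), Cmtm8 (0.951) and Ttc25 (0.951), and Csf2 to Grm8 (0.934), Btn1a1 (0.931) and Dyrk3 (0.93). Nfkbia was nearest to C3 (0.92), Rnf145 (0.915) and Csad (0.885). Il6, despite its low counts, was nearest to Cd40 (0.957), Gpr84 (0.935) and Acod1 (0.934). The nearest genes of Tnf, Adora2a (0.837), Rrp15 (0.812) and Tlr2 (0.802), and of Nfkbiz, Smpdl3a (0.833), Fgfr1op (0.83) and Serpina3i (0.83), were less alike.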

How the data were processed

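RNA was sequenced in 16 libraries of MTECs in 8 groups. The file deposited by the authors holds whole read counts for each Ensembl identifier, without normalization. The submitters' processing notes name Trimmomatic 0.36, STAR 2.5.2b, featureCounts, Subread 1.5.2, DESeq2 and GRCm38, and the strand setting and annotation release are not given in the sources used here. Identifiers were matched to GENCODE M21 of GRCm38 (49056 of 49315, and the remainder held 0.0106% of counts). Totals were 21860698 to 43442188 counts, and 3 counts, or 0.0674 to 0.142 CPM, were the floor. Intervals and floors cover counting error only.

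Genes passing filterByExpr were fitted with edgeR 4.0.16 in R 4.3.3 (TMM, 8 group means, quasi-likelihood test, two-sided, Benjamini-Hochberg over 15993 genes in each of 17 comparisons). Alternatives were DESeq2 1.42.0, scaling by upper quartile or by library size alone, keeping all genes, fitting only the libraries compared, a replicate block and leaving out each library, and steps were tested on simulated data. Tables and figures were made with Python 3.11.15. Log2 CPM for correlations used a prior count of 2. The 10 genes, the companion lists and the marker lists were chosen with earlier results of these data known. Named besides the 10 genes were the 4 called genes of each companion list with the smallest p in F WT MTECs, and the other receptors that fell there. Also named were list genes called in small counts elsewhere, the 3 nearest genes of each of the 10, and Lman1.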

Additional observations from a re-analysis of the deposited data

Results flagged for a closer look

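For 5 of the 10 genes, edgeR's quasi-likelihood model called an interaction in any of the 4 interactions tested per gene. Of all tested genes, 11.2% were called for genotype in F MTECs and 24.2% for sex in WT MTECs. The share called in any of the 4 was not determined. Between genotypes in F MTECs, the response in KO minus that in WT was -1.76 for Csf1, -1.62 for Il34 and -0.60 for Nfkbia on the log2 scale. The F KO HDM libraries also held more Lman1 than the F KO naive libraries, and the part of this in the interaction was not tested. Between sexes in WT MTECs, the response in M minus that in F was -2.78 for Csf1, -2.35 for Il34, -2.26 for Tnfaip3 and -1.55 for Lif. The interaction calls of Nfkbia and Lif depended on which libraries were fitted, as given in the Results. Groups of 2 libraries were too small for a test of outlying libraries.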

How the results depend on the processing

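Counts are of the 10 genes called at an adjusted p under 0.05. Apart from DESeq2, the share of all genes called under each alternative was not determined. Such a count therefore does not show whether the 10 genes differed from other genes. Without a filter on low counts there were 6 in the HDM response of F KO MTECs (3 in the report), 2 in M WT, 1 in M KO and 1 in the male average, 2 in KO minus WT of male HDM, 4 and 2 in male minus female of naive WT and naive KO, 6 in male minus female of HDM KO, 5 and 1 in the genotype interaction of F and M MTECs and 5 in the sex interaction of KO, and the cause was not tested. With only the libraries compared, which are fewer samples, there were 5 in the HDM response of F KO, 6 in male minus female of HDM KO, 5 in the genotype interaction of F and 1 in the sex interaction of KO. DESeq2 called 1 gene, Nfkbia, in the male average.

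With 1 library left out, calls ranged from 5 to 7 in the HDM response of F WT, 0 to 1 in that of F KO, 2 to 5 in KO minus WT of female HDM, 4 to 6 and 1 to 2 in male minus female of HDM WT and HDM KO, 2 to 3 in the genotype interaction of F, 3 to 4 in the sex interaction of WT and 0 to 1 in that of KO, and were 0 in the other 9. Where this left a group with 1 library, it was assumed to vary like the other groups.

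The 30 called differences kept their direction in all 345 alternative values and were called in 294. Of 1621 alternative values of the 140 differences not called, 55 were called, and 131 changed sign without a call. The levels moved by at most 3.35% per library under another scaling, and 8 of 160 group means moved by more than 1 SD, all 8 with library size only. The Csf1 mean in F WT HDM moved by less. The replicate numbers are not said to mark shared tracheas, and with 2 pairs a comparison they were not taken as pairs. Same-numbered libraries correlated in their deviations from -0.164 to 0.483. With replicate number as a block, calls were 6 in F WT, 3 in F KO, 6 and 3 in male minus female of HDM WT and HDM KO, 3 in the genotype interaction of F and 5 in the sex interaction of WT. With numbers crossed between groups, chosen after seeing the data, there were 0 in male minus female of naive KO and in the HDM response of M KO. Precision is limited by 2 cultures a group, and depth limits Il6 and Csf2.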
